A study of Mus musculus with 4 samples.

Results

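The cytosolic ribosomal protein genes were taken as every gene of the deposited feature list whose symbol follows the Rpl or Rps numbering, with Rplp0, Rplp1, Rplp2 and Rpsa added and pseudogenes and ribosomal S6 kinases left out. The rule selects genes by symbol and uses no measured value. It found 83 genes among 31053 features, 51 of the large and 32 of the small subunit. They were measured in invariant natural killer T (iNKT) cells, thymic T cells with a nearly fixed receptor for lipids on CD1d, sorted with PBS57-CD1d tetramers from 2 C57BL/6 and 2 Hivep3-/- mice. All 4 mice were untreated and aged 8 to 9 weeks, and the Hivep3-/- mice carried a disrupted Hivep3, the gene of a zinc finger protein, on a C57BL/6 background. Equal parts of CD44low and CD44high cells were pooled in each sort, which sets part of the cell composition of every library. Each mouse gave 1 droplet library that counts the 5′ ends of transcripts as unique molecular identifiers (UMIs).

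A ribosome is built from a large and a small subunit, each made of ribosomal RNA and a fixed set of ribosomal proteins. Their mRNAs are among the most abundant of a lymphocyte. Many of them start with a C followed by a run of pyrimidines, the 5′ terminal oligopyrimidine tract, through which the kinase mTOR and the protein Larp1 control how much of the mRNA is translated. During iNKT cell development, rare CD24-positive stage 0 cells leave the double positive thymocyte pool, divide, and give rise to the effector classes iNKT1, iNKT2 and iNKT17. The levels given here are of mRNA and carry no information on translation or on ribosome number.

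All 83 genes were found in the mouse gene annotation, spread over 19 chromosomes, with 14 on chromosome 7 and 4 on the X chromosome. For 29 of them the annotation holds at least 1 other gene that is at least 95% identical over at least 80% of the transcript, up to 31 such genes for a single member, and for 12 of them such a copy was itself counted in the files. Reads of such a gene can be split with its copy or lost, so the values of these members are uncertain. RefSeq (build GRCm38.p6) listed a promoter for 63 members. Within 15 bases of either side of the start, 38 of these 63 (60.3%) held a run of at least 6 pyrimidines on the coding strand, against 32.9% of 19407 genes with a listed promoter. In the window from 250 bases before to 50 after the start, both strands searched, CTTTCC was present in 52.4% of the members against 29.4% of all genes, CTCTTT in 44.4% against 25.1%, and CCGGAAG, a core of sites bound by Ets family factors, in 41.3% against 12.1%. CTCTTT and CTTTCC can overlap, as in CTCTTTCC. These matches are descriptions of sequence and not sites shown to be used.

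The 30 bases around the RefSeq start are shown for 6 members whose values are described further on, because they show how the start sequence differs among genes of the same complex. The first transcribed base is base 16, and capitals mark runs of at least 6 pyrimidines. The windows are chr3:90213634-90213663 on the minus strand for Rps27, chr9:66946071-66946100 on the plus strand for its paralogue Rps27l, chr14:24490663-24490692 on the plus strand for Rps24, chr7:4792950-4792979 on the plus strand for Rpl28, chr11:114668565-114668594 on the plus strand for Rpl38, and chr10:128549154-128549183 on the minus strand for Rpl41.
Rps27: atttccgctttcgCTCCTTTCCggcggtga
Rps27l: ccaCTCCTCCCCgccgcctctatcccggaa
Rps24: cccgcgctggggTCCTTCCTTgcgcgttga
Rpl28: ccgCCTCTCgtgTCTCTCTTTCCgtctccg
Rpl38: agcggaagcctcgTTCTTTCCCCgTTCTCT
Rpl41: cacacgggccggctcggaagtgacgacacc
A run covers the first transcribed base in each of Rps27, Rps24, Rpl28 and Rpl38. The other marked run of Rpl28 lies wholly before that base, and that of Rpl38 wholly after it. The run of Rps27l lies wholly before it, and the window of Rpl41 holds no such run. RefSeq lists 2 starts for Rps27l and for Rps24, of which 1 is shown.

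The 4 libraries held 4243 to 8374 barcodes, and 3651 to 7231 cells were kept after filtering, with 25518692 to 45022744 UMIs in the kept cells. Median depth was lower in C57BL/6, at 4596 and 5268 UMIs per cell, than in Hivep3-/-, at 6833 and 6491. Pairs of libraries shared 26 to 58 barcodes. Hivep3 itself was not lower in the libraries labelled Hivep3-/-: over all kept cells it had 38.54 and 36.4 UMIs in every 1000000 in the C57BL/6 libraries against 101.3 and 67.97 in Hivep3-/-. A 5′ end count does not show whether the disrupted part of the transcript was present, so it does not check the labels, and genotypes here are those of the labels. Y-linked transcripts had 0 UMIs in C57BL/6 replicate 1 and 3568 to 4879 in the other libraries. Xist, made from the inactive X chromosome of females, had 14609 UMIs there and 3 to 25 in the others. By these counts C57BL/6 replicate 1 is female and the others are male, although the study names female C57BL/6 mice for this experiment. The genotype comparison thus sets a mixed pair against a male pair, and the part of sex in it was not tested. Clusters were made without the ribosomal protein genes and named from marker lists, and the names are followed by "-like". They gave 1222 stage 0-like cells (Itm2a, Cd24a, Myb, Lef1 and Egr2 among the leading genes), 2277 cycling-like, 2832 iNKT2-like, 615 iNKT17-like and 9515 iNKT1-like cells, while 4 clusters were left unnamed.

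Over all kept cells, the ribosomal protein genes took 30.6% of UMIs in C57BL/6 replicate 1, 31.0% in C57BL/6 replicate 2, 28.9% in Hivep3-/- replicate 1 and 30.2% in Hivep3-/- replicate 2. Values of single libraries are given in this order from here on. The median cell had 30.7, 31.3, 29.1 and 30.7%, while the 5th percentile of cells was at 18.1 to 23.3% and the 95th at 36.0 to 38.7% in the 4 libraries. The large subunit genes took 1.07 to 1.10 times the UMIs of the small subunit genes in the 4 libraries. No score over the genes was tested, since they were chosen with results of these data in view, and the shares are given as descriptions.

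Single members spanned a wide range of levels. Each transcript molecule gives 1 UMI at its 5′ end whatever its length, so levels as TMM-scaled UMIs per 1000000 UMIs (CPM) were compared between genes without dividing by length. Among the highest over all kept cells were Rps24 (9299 ± 437 CPM, SD over the 4 libraries), Rpsa, the laminin receptor protein of the small subunit (8277 ± 646), Rpl13 (7519 ± 712) and Rps16 (6439 ± 523). Rps24 alone made up 3.06% of the UMIs of the group and stood highest in 3 of 4 libraries, at 8766, 9817, 9211 and 9403 CPM. In C57BL/6 replicate 1, Rpsa was higher, at 9166 CPM. The spreads of neighbouring genes in this order overlap.

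The 5 lowest members were Rps27l, a paralogue of Rps27 known to be induced by p53 (192 ± 23.7 CPM), Rpl7l1, a relative of Rpl7 (74.8 ± 5.06), Rpl39l, a paralogue of Rpl39 (1.52 ± 0.344), Rpl3l, a paralogue of Rpl3 known from muscle, and Rpl10l, a paralogue of Rpl10 known from testis. Rpl3l had 1 UMI in each of C57BL/6 replicate 2 and Hivep3-/- replicate 2 and 0 in the other libraries. Rpl10l had 0 of 135942222 UMIs, which allows a level of up to 0.0221 CPM over all libraries, counting error only. Rpl3l and Rpl10l did not pass the filter on low counts and were not tested, which left 81 members in most comparisons.

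The share of UMIs differed between the classes in the same order in every library. It was lowest in stage 0-like cells, with 24.5 and 25.6% in C57BL/6 and 20.3 and 23.8% in Hivep3-/- (mean 23.6% ± 2.28, SD, n = 4). In cycling-like cells it was 27.3, 27.4, 24.5 and 24.8% (26.0% ± 1.58). The iNKT17-like cells had 31.2, 31.4, 28.7 and 30.1% (30.3% ± 1.205) and the iNKT1-like cells 31.3, 31.8, 29.9 and 31.9% (31.2% ± 0.920). The highest share was in iNKT2-like cells, with 34.6, 34.6, 33.0 and 35.0% (34.3% ± 0.901). The neighbours closest to each other in this order were iNKT17-like and iNKT1-like cells, which differed by 0.896 ± 0.739 percentage points within a library, higher in iNKT1-like cells in 4 of 4. Stage 0-like and iNKT2-like cells differed by 10.7 ± 1.56 points, with iNKT2-like cells higher in 4 of 4. Stage 0-like cells stayed lowest and iNKT2-like cells highest in all 4 libraries under each of 6 other settings of the clustering, the cell filter and doublet scores. The doublet setting removed the cells scored highest by a doublet search that had not worked, so it cannot show whether doublets matter.

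**Figure D1:**
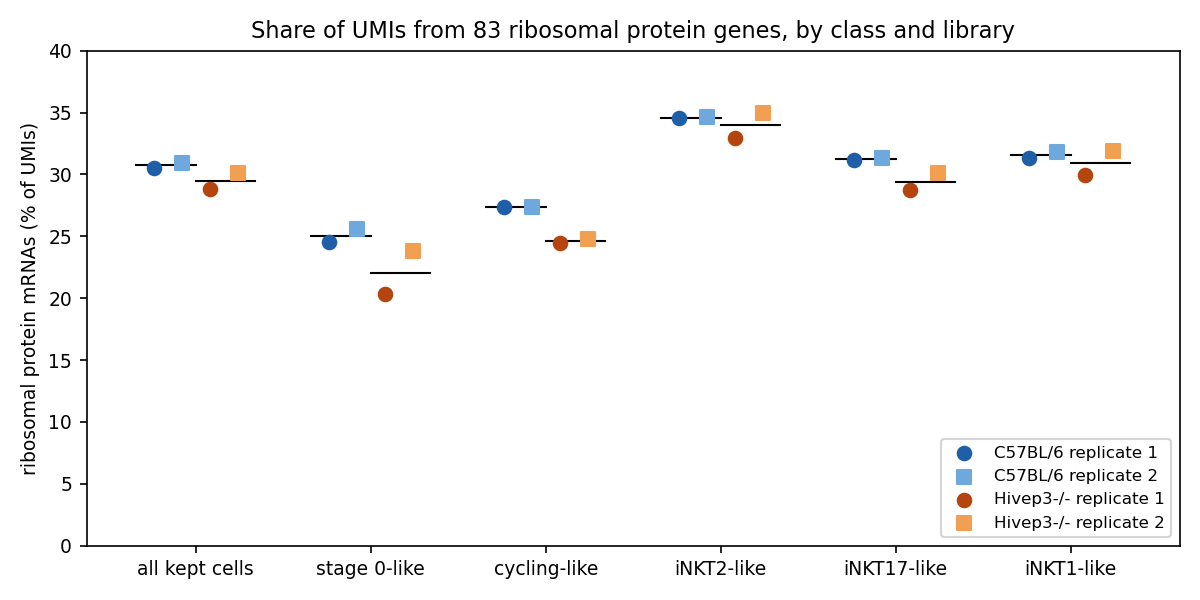
Percent of UMIs taken by the 83 ribosomal protein genes (vertical axis, from 0) in all kept cells and in the 5 iNKT classes, with 1 point per library and a line at the mean of each genotype. Stage 0-like cells sit between 20.3 and 25.6% and iNKT2-like cells between 33.0 and 35.0%, and the Hivep3-/- points lie below the C57BL/6 points in all kept cells and in stage 0-like, cycling-like and iNKT17-like cells.

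The share and the number of UMIs of these genes per cell ordered the classes differently. Cycling-like cells had the most, 3522 ± 516 ribosomal protein UMIs per cell (SD over 4 libraries), at a share of only 26.0%, since they had 13524 ± 1488 UMIs of all genes per cell. The iNKT2-like cells had 3089 ± 302, iNKT17-like 2367 ± 389, iNKT1-like 1693 ± 407 and stage 0-like 1333 ± 232. These counts move with the depth of a library as well as with the RNA of a cell: in iNKT1-like cells they were 1153 and 1607 in C57BL/6 against 2043 and 1969 in Hivep3-/-, and the UMIs of all genes per cell did not overlap between the genotypes either.

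Within stage 0-like cells the share also went with depth. When the cells of each library were divided at their median UMI count, the shallower cells had 18.6, 20.7, 15.7 and 19.2%, and the deeper cells 26.3, 27.1, 22.1 and 25.4%. The deeper stage 0-like cells were below the deeper cells of the other 4 classes in 3 of 4 libraries. In Hivep3-/- replicate 2 they were at 25.4% and the deeper cycling-like cells at 25.3%. The deeper cells were higher by 6.12 to 7.70 points in stage 0-like cells and by 0.143 to 2.42 points in the other classes.

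Single clusters repeated this picture. Within the cycling-like class, cluster 5, led by genes of DNA replication such as Mcm3, Mcm5 and Cdc6, had 28.0% ± 1.55 (SD, n = 4). Cluster 10, led by genes of mitosis such as Ccnb2, Cenpa and Cdc20, had 24.5% ± 1.52. Cluster 11, led by histone genes, Rrm2 and Top2a, had 22.6% ± 1.83, a level like that of the stage 0-like cluster. The 4 iNKT1-like clusters lay close together, between means of 30.3% for the cluster whose top genes include the interferon-induced Ifit3 and Isg15, and 31.8% for that led by Ccl5 and Gzma. An unnamed cluster of 73 cells with 1708 UMIs per cell had the lowest share of all clusters, 9.63% ± 3.34, and the 31 double positive thymocyte-like cells had 17.5% ± 3.90. Both are small and shallow, and their share may not be set beside those of deeper clusters.

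**Figure D2:**
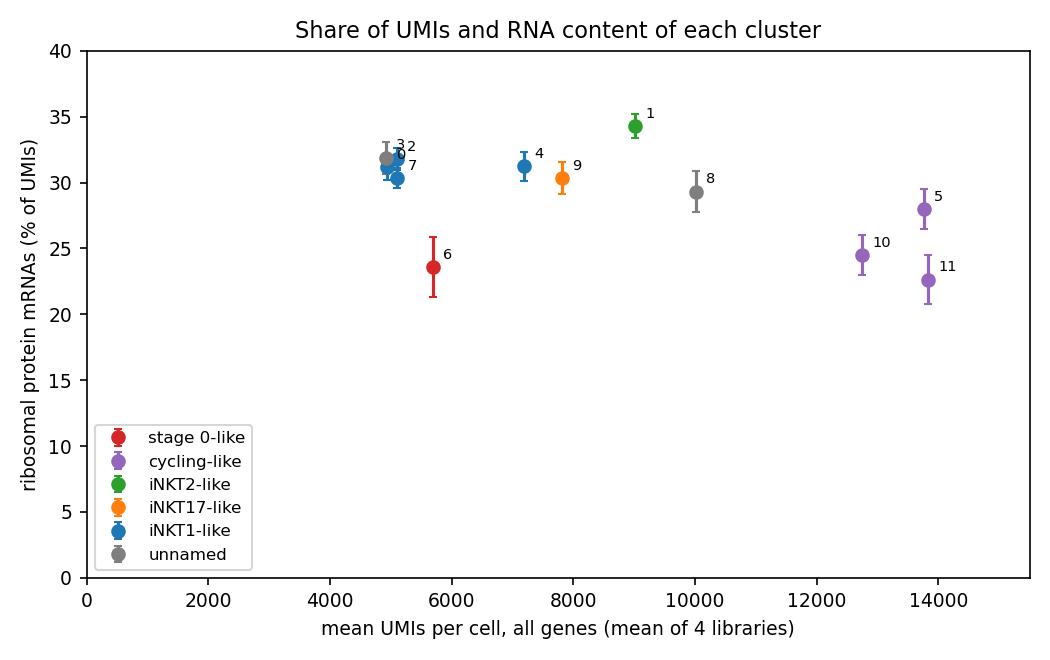
Percent of UMIs taken by the ribosomal protein genes (vertical axis) against the UMIs of all genes per cell (horizontal axis), with 1 numbered point per cluster of at least 100 cells at the mean of the 4 libraries, bars of 1 SD of the share and colours by class. The 3 cycling-like clusters have the most UMIs per cell and lie at 22.6 to 28.0%, the iNKT2-like cluster is highest at 34.3%, and the stage 0-like cluster is low at 23.6% with few UMIs per cell.

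To ask how each class differed gene by gene, counts were summed per library and class, and each class was set against the mean of the other 4 by the quasi-likelihood test of edgeR with library as a block and Benjamini-Hochberg adjustment over 10825 genes. Members with an adjusted p under 0.05 were called. The 5 comparisons use the same sums and are not independent of each other. The sums are scaled before testing, so the log2 differences are relative levels and not UMIs per cell, which are given per class above. TMM scaling sets the middle of all genes near 0 in each class. Scaling by the UMIs of the members themselves shows instead which members moved against the rest of the group, and its counts are given beside the main ones. This scaling holds the sum of the members fixed, so rises and falls among them must in part balance. The share of all genes called under it is not reported here, so its counts are descriptions only.

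In stage 0-like cells, 77 of 81 tested members fell, none rose, and the median log2 difference was -0.66 against -0.03 over all genes tested, of which 28.6% were called lower. Among the largest falls were those of Rpl13a, known outside the ribosome as part of a complex that silences translation after interferon-γ (log2 difference -1.03, standard error (SE) 0.052, adjusted p = 2.19e-12), and Rps19, the gene most often mutated in Diamond-Blackfan anaemia (-0.95, SE 0.045, adjusted p = 7.48e-13). Rpl13a was at 1577, 1992, 1264 and 1927 CPM in stage 0-like cells, against 3802, 4467, 3483 and 4718 in iNKT1-like cells. No stage 0-like value of Rpl13a reached an iNKT1-like value. Rps27l, Rpl7l1 and Rpl39l were among the members not called. Among the proteins of the ribosomal stalk, which recruits elongation factors, Rplp1 (-0.75) fell further than Rplp2 (-0.56) and Rplp0 (-0.34), and these differences between the genes were not tested. Scaled by the UMIs of the members, 35 were called higher and 26 lower.

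Cycling-like cells split the group. Of 81 members, 54 fell and 5 rose, with 25.9% of all genes tested called lower and 29.1% higher, and the median of the members was -0.17. Among the members that rose were Rps27l (0.90, SE 0.085, adjusted p = 2.21e-08), Rpl7l1 (0.29, adjusted p = 0.000977), Rpl41 (0.18, adjusted p = 0.005) and Rpl31 (0.17, adjusted p = 0.0127). Rps27l stood at 337, 379, 276 and 291 CPM in cycling-like cells and at 111, 158, 150 and 164 in iNKT1-like cells, with no overlap. The largest falls were of Rps27 (-0.67, SE 0.052, adjusted p = 1.31e-09), Rpl37a (-0.51, SE 0.054, adjusted p = 1.25e-07) and Rps24 (-0.48, SE 0.049, adjusted p = 7.75e-08). Rps27 was at 2816, 3810, 2853 and 3059 CPM in cycling-like cells and at 6388, 8420, 6264 and 7724 in iNKT1-like cells. The paralogues Rps27 and Rps27l, which encode proteins of 84 residues each, thus moved in opposite directions. Scaled by the UMIs of the members, 32 were called higher and 22 lower.

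In iNKT2-like cells, 78 of 81 members rose and none fell, with 18.8% of all genes tested called higher, and the median was 0.47. The middle of the group was narrow here, from 0.42 at the first quartile to 0.51 at the third. The largest rises were of Rpl28 (0.61, SE 0.052, adjusted p = 2.03e-08), Rps20 (0.61, SE 0.050, adjusted p = 1.36e-08) and Rps26, a protein near the exit of the mRNA channel (0.61, SE 0.044, adjusted p = 3.77e-09). Rpl28 was at 6408, 6874, 5076 and 6051 CPM in iNKT2-like cells, against 3589, 3962, 3446 and 4139 in iNKT1-like cells. Members not called were Rps27l (-0.14), Rpl39l (-0.11) and Rpl7l1 (0.0016). Scaled by the UMIs of the members, 14 were called higher and 16 lower.

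In iNKT17-like cells, 37 members rose and 5 fell, with 19.5% of all genes tested called higher and 16.7% lower, and the median was 0.12. Among the largest rises were those of Rpl30 (0.32, SE 0.048, adjusted p = 2.05e-05) and Rps19 (0.32, SE 0.041, adjusted p = 2.94e-06). Among the largest falls were those of Rps25, known for its role at viral internal ribosome entry sites (-0.23, SE 0.067, adjusted p = 0.0115), and Rpl3, near the peptidyl transferase centre (-0.18, SE 0.045, adjusted p = 0.0033). Without C57BL/6 replicate 1 the call of Rps25 was lost (-0.20), and without Hivep3-/- replicate 1 the number of called members went from 42 to 26. Scaled by the UMIs of the members, 17 were called higher and 25 lower.

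In iNKT1-like cells, 62 members rose and 9 fell, with 31.9% of all genes tested called higher and 27.5% lower, and the median was 0.28. The largest rises were of Rps27 (0.83, SE 0.047, adjusted p = 6.44e-12), Rps24 (0.60, SE 0.046, adjusted p = 6.5e-10) and Rps21 (0.59, SE 0.051, adjusted p = 3.42e-09). Among the largest falls were those of Rps27l (-0.51, SE 0.092, adjusted p = 7.63e-05) and Rpl31 (-0.25, SE 0.058, adjusted p = 0.000888). Rps24 reached 12415, 12336, 10709 and 12034 CPM in iNKT1-like cells against 6468, 6872, 6194 and 6515 in cycling-like cells. Rpl28 (-0.24) and Rps26 (-0.22), among the largest rises of iNKT2-like cells, were among those that fell in iNKT1-like cells. Scaled by the UMIs of the members, 29 were called higher and 35 lower, and the all-gene median then lay at -0.28.

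**Figure D3:**
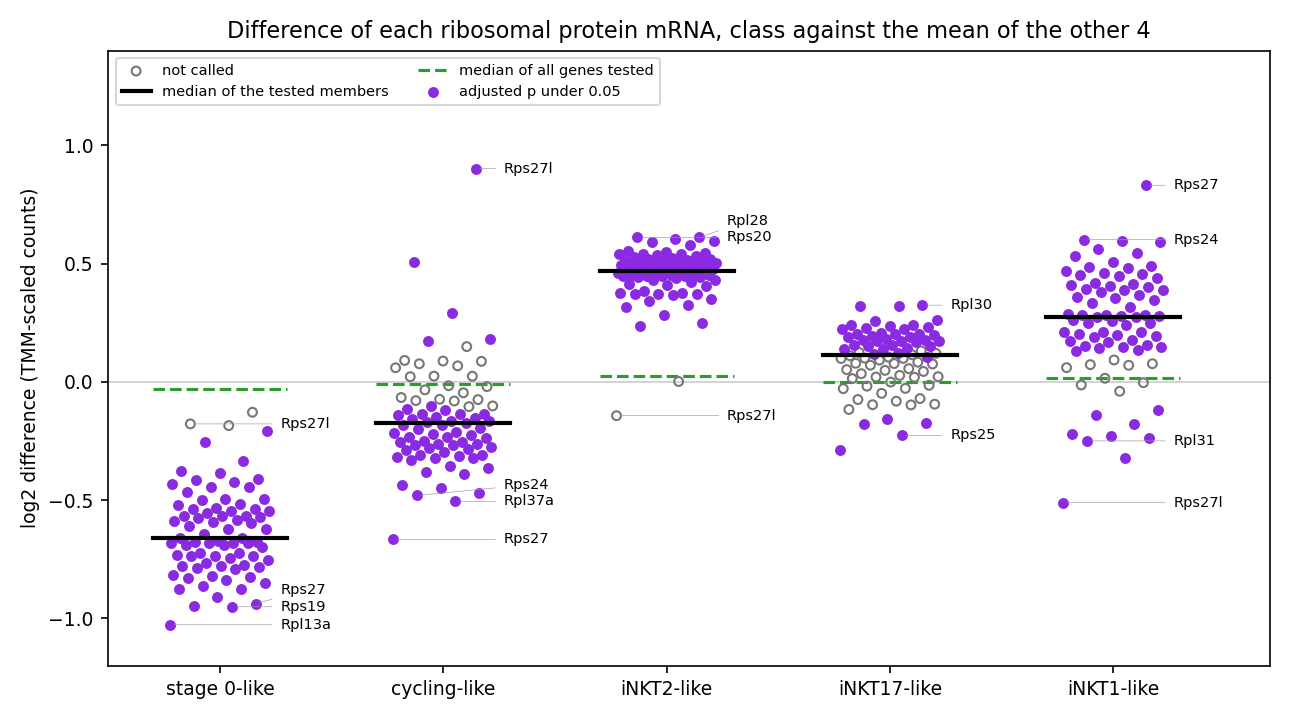
Log2 difference of each class against the mean of the other 4 (vertical axis) for the tested ribosomal protein genes except Rpl39l, with 1 point per gene, filled where the adjusted p is under 0.05, and lines at the medians of the members and of all genes tested. All points of stage 0-like cells lie below 0 and nearly all of iNKT2-like cells above it, while Rps27l lies at the top in cycling-like cells and at the bottom in iNKT1-like cells.

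The paralogues Rps27l and Rps27 kept apart from the group across classes. Rps27l was highest in cycling-like cells (321 ± 46.7 CPM) and at 146 to 188 CPM on average in the other 4 classes, whose values overlap in part. Rps27 ran the other way, from 2705 ± 482 CPM in stage 0-like and 3135 ± 463 in cycling-like cells to 7199 ± 1049 in iNKT1-like cells. Rps27rt, a near-identical counted copy of Rps27, fell in stage 0-like (-1.17, adjusted p = 5.31e-06) and cycling-like cells (-0.65, adjusted p = 0.000153) like Rps27 itself. The libraries of the same genotype also differed in Rps27, which was 0.59 higher on the log2 scale in C57BL/6 replicate 2 than in replicate 1 over all kept cells.

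**Figure D4:**
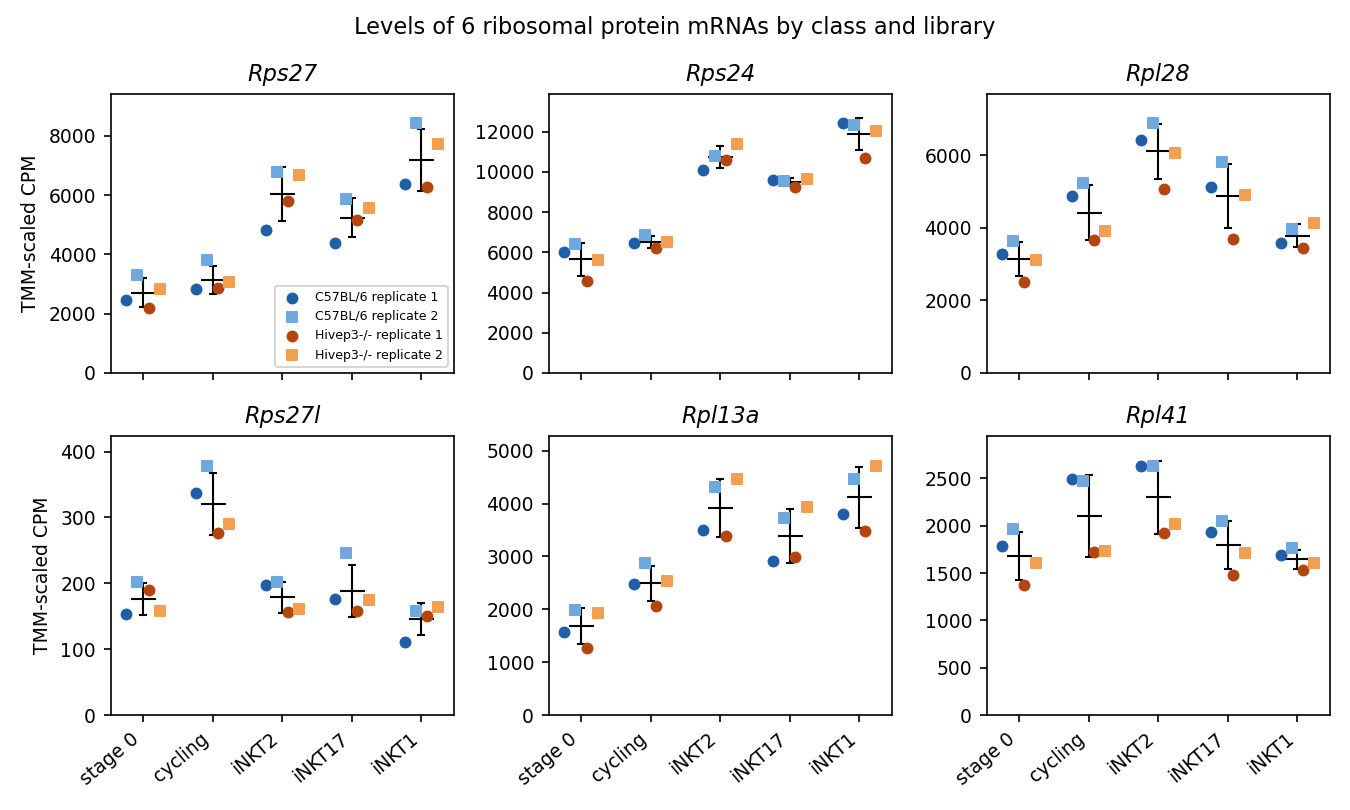
TMM-scaled CPM (vertical axes, from 0) of Rps27, Rps24, Rpl28, Rps27l, Rpl13a and Rpl41 in the 5 classes, with 1 point per library and the mean with 1 SD over the 4 libraries. Rps27, Rps24 and Rpl13a are lowest on average in stage 0-like and cycling-like cells and highest in iNKT1-like cells, Rpl28 and Rpl41 are highest on average in iNKT2-like cells, and Rps27l in cycling-like cells.

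Among the other paralogues, Rpl22, an RNA-binding protein needed for the development of αβ T cells, was above its paralogue Rpl22l1 in every class. Its class means ran from 1743 ± 203 CPM in stage 0-like to 3193 ± 333 in iNKT2-like cells. Those of Rpl22l1 ran from 556 ± 139 in stage 0-like to 1021 ± 167 in iNKT1-like cells. Rpl22l1 rose in iNKT1-like cells by 0.44 (adjusted p = 1.46e-07) and Rpl22 by 0.18 (adjusted p = 0.00151). In cycling-like cells Rpl22 fell (-0.20, adjusted p = 0.000964) and Rpl22l1 was not called (-0.02, adjusted p = 0.763). The difference between the paralogues was not tested. Rpl39l had only 4 to 84 UMIs per class, against a level of 5949 ± 533 CPM over all kept cells for Rpl39.

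The 4 members on the X chromosome are Rpl10, Rpl36a, Rpl39 and Rps4x. Over all kept cells Rpl10, a late-joining protein of the large subunit, was at 719 CPM in C57BL/6 replicate 1 and at 551, 509 and 638 in the remaining libraries. The replicate whose sex-linked transcripts differed was thus the highest for Rpl10, and this link was not tested. It was not the highest for Rpl36a, Rpl39 or Rps4x: Rps4x was at 6235, 6311, 5504 and 5727 CPM.

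Turning to genotype, the share of UMIs of the ribosomal protein genes over all kept cells was lower in Hivep3-/- (29.5% ± 0.912) than in C57BL/6 (30.8% ± 0.286, SD, n = 2 each), a difference of -1.26 percentage points, and the libraries did not overlap. The difference was -2.99 points in stage 0-like, -2.72 in cycling-like and -1.83 in iNKT17-like cells, again without overlap. With 1 library left out it ranged from -1.90 to -0.614 over all kept cells, from -4.74 to -1.245 in stage 0-like, from -2.88 to -2.57 in cycling-like and from -2.53 to -1.12 in iNKT17-like cells. The value nearest 0 was in each case that without Hivep3-/- replicate 1, and the farthest that without Hivep3-/- replicate 2. In iNKT2-like and iNKT1-like cells it was -0.607 and -0.637 points with overlap, and without Hivep3-/- replicate 1 both turned, to 0.409 and 0.365 points. Hivep3-/- replicate 1 had the lowest share of the 4 libraries in each of these classes, and also the lowest mitochondrial share (2.11% of UMIs against 2.64 to 3.16%) and the highest share of the nuclear RNA Malat1 (0.320% against 0.170 to 0.249%). Their part in the result was not tested. The kept cells also differed in class. The iNKT1-like cells were 2758 of 7231 and 1855 of 3651 in C57BL/6, and 2764 of 4598 and 2138 of 4167 in Hivep3-/-. Cycling-like cells numbered 1257 and 430 against 212 and 378, and stage 0-like cells 354 and 112 against 369 and 387. Values over all kept cells thus do not separate class composition from differences within a class. The part of composition was not tested.

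In cycling-like cells, where clusters of different share make up the class, the direction held in each of its 3 clusters. Cluster 5 had 28.9 and 29.5% in C57BL/6 against 26.1 and 27.4% in Hivep3-/-, cluster 10 had 25.8 and 25.6% against 22.5 and 24.1%, and cluster 11 had 24.5 and 23.7% against 20.5 and 21.7%. The class itself was smaller in Hivep3-/-, with 212 and 378 cells against 1257 and 430. In iNKT1-like cells cluster 0 held most cells of C57BL/6 and clusters 0 and 2 most of those of Hivep3-/-.

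Gene by gene, edgeR called no member between the genotypes over all kept cells, where 0.765% of 12291 genes were called. Of the 81 members tested, 72 had a lower estimate in Hivep3-/-, the median log2 difference was -0.18 against 0.03 over all genes, and 4 had an unadjusted p under 0.05, against 12% of all genes. In 57 members the libraries did not overlap with Hivep3-/- lower, beside 20.5% of all genes, and in 1 they did not overlap with Hivep3-/- higher, beside 23.6% of all genes. DESeq2 called no member either. With 2 libraries per genotype the members shared the deviation of each library, so these counts are not 81 separate pieces of evidence. In the Hivep3-/- pair, 75 of 81 members were higher in replicate 2 than in replicate 1, with a median of 0.15, and in the C57BL/6 pair 44 of 81, with a median of 0.01.

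The 5 members farthest above the median of the group in this comparison were Rpl38, known for its role in the translation of Hox mRNAs, Rps29, Rps28, Rpl21 and Rps21. Rpl38 was at 3698 and 4581 CPM in C57BL/6 and at 5414 and 4764 in Hivep3-/-, without overlap, with a log2 difference of 0.30 (SE 0.153, adjusted p = 0.507). It was the only member tested whose libraries did not overlap with Hivep3-/- higher over all kept cells. Its estimate was above 0 in each of the 5 classes, from 0.09 in stage 0-like to 0.23 in iNKT1-like cells, and none passed the test. Rps29, a zinc-binding protein of the small subunit, was at 5184 and 6594 CPM against 6828 and 6370 (0.16). Rps28, Rpl21 and Rps21 had estimates of 0.11, 0.11 and 0.05 with overlapping libraries. Without C57BL/6 replicate 1 the estimates of Rps29, Rps28, Rpl21 and Rps21 were below 0, while that of Rpl38 kept its sign. Between classes, all 5 rose in iNKT1-like cells and fell in cycling-like cells. Rpl38 had 0.53 and -0.38 there, and Rps21 0.59 and -0.45. The part of class composition in these genotype values over all kept cells was not tested.

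The 5 members farthest below the median were Rpl41, Rpl15, Rpl39l, Rps6 and Rps18. Rpl41, the shortest of the ribosomal proteins with 25 residues, was at 2129 and 2018 CPM in C57BL/6 and at 1532 and 1628 in Hivep3-/-, without overlap (-0.39, SE 0.119, adjusted p = 0.244). Rpl15 was at 3823 and 3313 against 2549 and 3010 CPM (-0.36, adjusted p = 0.394). Rps6, the protein phosphorylated by the S6 kinases, was at 2118 and 2024 against 1455 and 1861 CPM (-0.32, adjusted p = 0.469). Rps18 was at 3569 and 3383 against 2542 and 3030 CPM (-0.32, adjusted p = 0.426). For Rpl39l, with 39 to 65 UMIs per library, the estimate of -0.33 had an SE of 0.368. Between classes, Rpl41 and Rpl15 fell in iNKT1-like cells (-0.23 and -0.12), Rps6 and Rps18 rose (0.20 and 0.29), and Rpl39l was not called. The part of class composition in these genotype values was not tested either.

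**Figure D5:**
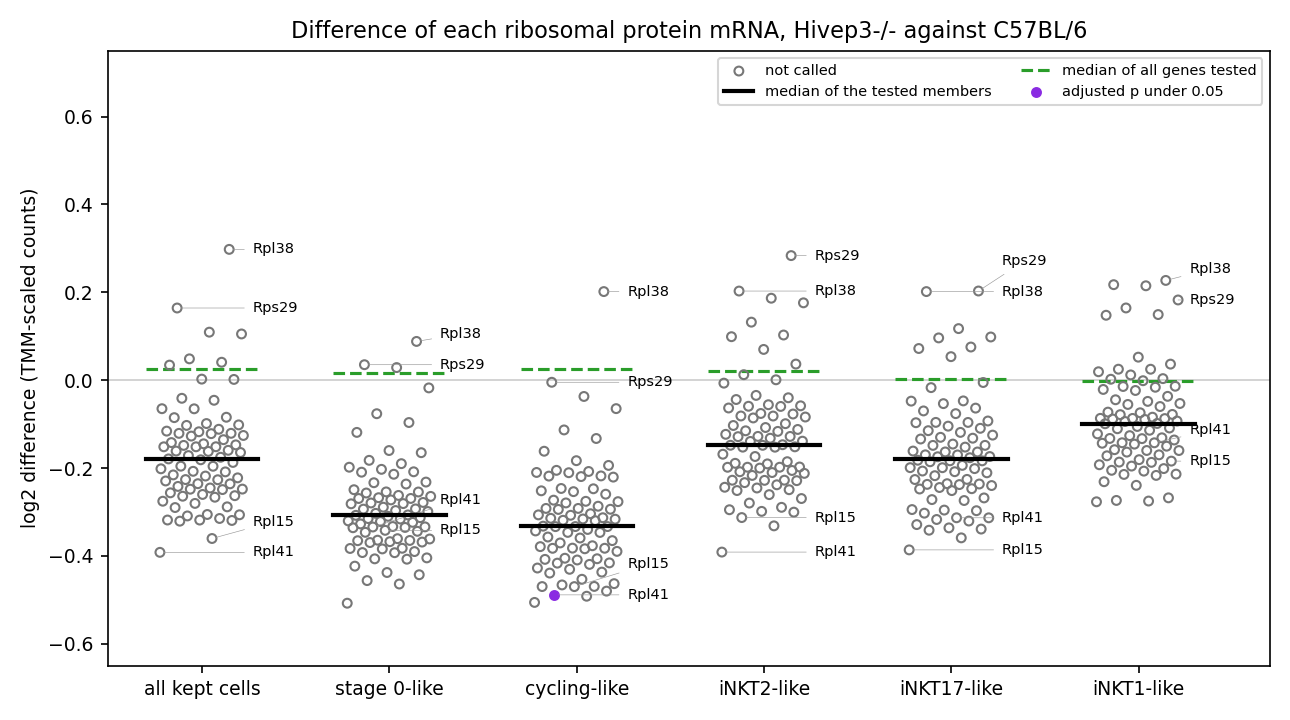
Log2 difference of Hivep3-/- over C57BL/6 (vertical axis) for the tested ribosomal protein genes except Rpl39l, over all kept cells and in each class, with 1 point per gene, filled where the adjusted p is under 0.05, and lines at the medians of the members and of all genes tested. The medians of the members lie between -0.33 in cycling-like and -0.10 in iNKT1-like cells, Rpl38 lies at or near the top in every column, and the filled point is Rpl41 in cycling-like cells.

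By class, 1 member was called. In cycling-like cells, where 3.45% of 10252 genes were called in either direction and 1.78% lower, Rpl41 fell by 0.49 (SE 0.093, adjusted p = 0.0402), from 2490 and 2499 CPM in C57BL/6 to 1783 and 1773 in Hivep3-/-. The members had a median of -0.33 there, 59 of 81 had an unadjusted p under 0.05, against 17.7% of all genes, and 70 did not overlap with Hivep3-/- lower, beside 24.1% of all genes, and none with Hivep3-/- higher, beside 24.7%. DESeq2 called 3 members in these cells, without its share of all genes to set beside them. The call of Rpl41 did not hold under every alternative: with its near-identical counted copy Gm10076 added, the estimate was -0.36 and not called. Gm10076 itself was at a log2 difference of -0.31 (adjusted p = 0.137) in these cells, so the reads of Rpl41 may be split between both loci. When Hivep3-/- replicate 2 was left out, 16 members were called, and when any other library was left out, none.

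In stage 0-like cells none of 80 members was called, where 0.183% of all genes were, and 6 had an unadjusted p under 0.05, against 7.62% of all genes. Their median was -0.31, and 55 did not overlap with Hivep3-/- lower, beside 18.3% of all genes, and none with it higher, beside 19.3%. In iNKT2-like cells none of 80 was called, where 0.323% of all genes were, and 2 had an unadjusted p under 0.05, against 9.66% of all genes. Their median was -0.15, and 40 did not overlap with Hivep3-/- lower, beside 20% of all genes, and 4 with it higher, beside 21.3%. In iNKT17-like cells none of 80 was called, where 0.105% of all genes were, and 9 had an unadjusted p under 0.05, against 5.57% of all genes. Their median was -0.18, and 48 did not overlap with Hivep3-/- lower, beside 17.3% of all genes, and 2 with it higher, beside 17.9%. In iNKT1-like cells none of 81 was called, where 0.617% of all genes were, and none had an unadjusted p under 0.05, against 7.92% of all genes. Their median was -0.10, the nearest to 0, and 29 did not overlap with Hivep3-/- lower, beside 18.1% of all genes, and 3 with it higher, beside 18.6%. DESeq2 called no member in these 4 classes.

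The difference between stage 0-like and iNKT1-like cells in the genotype effect was tested itself, with library as a block. No member was called, where 1.68% of 10816 genes were, while 40 of 81 had an unadjusted p under 0.05, all with a more negative estimate in stage 0-like cells, against 11.9% of all genes in either direction. The median interaction estimate of the members was -0.20 against 0.02 over all genes, and the smallest adjusted p was 0.0581, for Rpl29. DESeq2 called 3 members, and edgeR called 1 to 10 under several of the other settings, without the shares of all genes to set beside these counts.

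Features that the choice of genes did not use were set beside these values. The 11 members encoding fewer than 100 residues, Rpl38, Rpl39, Rpl41, Rps21, Rps27, Rps28 and Rps29 among them, had a median genotype difference over all kept cells of -0.04, and the 70 longer members -0.19. This gap rested on C57BL/6 replicate 1: without it the medians were -0.19 and -0.18, and without any other single library the short members stayed higher, by 0.115 to 0.289. Rps27, Rps29 and Rpl38 were 0.59, 0.35 and 0.31 lower on the log2 scale in C57BL/6 replicate 1 than in replicate 2, where the median member was 0.01 lower. In iNKT1-like cells against the other classes the medians of short and longer members were 0.49 and 0.25, and in cycling-like cells -0.30 and -0.17. C57BL/6 replicate 1 held 2758 iNKT1-like cells of 7231 kept, against 1855 of 3651, 2764 of 4598 and 2138 of 4167 in the other libraries. The part of class composition in the genotype gap by protein size was not tested. Members with a pyrimidine run of at least 6 bases at the start had a median of -0.68 in stage 0-like cells, and those without it -0.57, and in iNKT1-like cells 0.33 and 0.24. The quartiles of these groups overlap. Members of the large and of the small subunit had the same median genotype difference in cycling-like cells, -0.33.

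Genes that work with the ribosomal proteins were read from lists. Fau, which encodes a further ribosomal protein as a fusion to a ubiquitin-like protein, and Rack1, which sits on the small subunit, both fell in stage 0-like and cycling-like cells and rose in the iNKT1-like and iNKT2-like classes. Fau also rose in iNKT17-like cells, where Rack1 had an estimate of 0.06 (adjusted p = 0.342). Of 19 translation factors, 13 fell and 3 rose in stage 0-like cells, where 28.6% of all genes tested were called lower and 25.1% higher. In iNKT2-like cells 13 rose and 2 fell, beside 18.8% of all genes higher and 13.1% lower. Eef1a1, which delivers aminoacyl-tRNA, had log2 differences of -0.51 (adjusted p = 2.44e-10) in stage 0-like and 0.42 (adjusted p = 1.28e-08) in iNKT2-like cells.

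Genes that build ribosomes went another way. Of 39 ribosome biogenesis genes, 22 rose and 1 fell in stage 0-like cells, beside 25.1% of all genes tested higher and 28.6% lower. In cycling-like cells 31 rose and none fell, beside 29.1% higher and 25.9% lower. In iNKT17-like cells 23 fell and none rose, beside 16.7% lower and 19.5% higher, and in iNKT1-like cells 25 fell and 1 rose, Bysl (0.24, adjusted p = 0.0297), beside 27.5% lower and 31.9% higher. In iNKT2-like cells most were not called. Wdr12, Nop10, Polr1d and Npm1 rose there, beside 18.8% of all genes higher. Nop56, Ebna1bp2, Bop1, Bysl, Rrp12 and Nolc1 fell, beside 13.1% lower. Nop56, Nop58 and Ncl, which are nucleolar proteins, rose in cycling-like cells by 0.91, 0.91 and 0.67. Of 77 genes of mitochondrial ribosomal proteins, 61 rose and 1 fell in cycling-like cells, beside the same 29.1% and 25.9% of all genes, and 49 fell and 6 rose in iNKT1-like cells, beside 27.5% and 31.9%. Mycn, a Myc family factor among 11 listed regulators, had 34, 25, 27 and 47 UMIs in iNKT17-like cells and 0 to 16 per library in each of the other classes. It was counted too rarely outside iNKT17-like cells for a fold change to be given. Myc had a log2 difference of -1.35 in iNKT17-like cells (adjusted p = 2.25e-06) and of 0.84 in iNKT1-like cells (adjusted p = 8.14e-07). Of the other listed regulators, Rptor (1.34, adjusted p = 2.75e-09), Larp1 (0.65, adjusted p = 1.12e-05) and Eif4ebp1 (0.37, adjusted p = 0.000919) also rose in iNKT1-like cells. Rheb (-0.29) and Rps6kb2 (-0.38) fell there, and Mtor was not called (-0.11, adjusted p = 0.407). No gene of the lists of biogenesis factors, translation factors, regulators or mitochondrial ribosomal proteins was called between the genotypes in any class. Of the 13 protein-coding genes of the mitochondrial genome, 2 fell in Hivep3-/- cycling-like cells, beside 1.78% of all genes called lower by edgeR. They were mt-Nd4l (-0.74, adjusted p = 0.0117) and mt-Cytb (-0.75, adjusted p = 0.0349). Over all kept cells the median of the 13 was -0.38, and none was called (smallest adjusted p = 0.156, mt-Nd4l).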

How the data were processed

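Thymic iNKT cells were profiled in 4 libraries, 1 per mouse. The deposited values are raw UMI counts per gene and barcode, and per the labels the authors ran Cell Ranger 3.1.0 on mm10, with Seurat 3.1.4 also named. The matrices hold barcodes already called as cells and no normalization. The thresholds of the study's methods were applied (500 genes or more and under 4100, 1000 UMIs or more, and under 6% of UMIs mitochondrial). Scrublet (scanpy 1.11.5, Python 3.11) marked 0 to 5 cells per library and had not worked, so no doublet was removed.

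Cells were clustered in R 4.3.3 (Seurat 5.3.0, irlba 2.3.5.1, RANN 2.6.2) on 2000 variable genes without the ribosomal protein genes, Hivep3, genes the study names between genotypes, sex-linked genes and T cell receptor segments, with 30 components, a mutual nearest neighbour correction over 20 neighbours and resolution 0.8. A cluster took the name with most listed markers among its top 50 genes by fold, at least 4, and with at least 2 and the most of any class among its top 10, a scoring set after seeing the data. Since names were rebuilt, classes can differ from those of the study.

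Cells are not replicates. Counts were summed per library and class and tested with edgeR 4.0.16 (filterByExpr, TMM, two-sided quasi-likelihood test, Benjamini-Hochberg over all genes tested, called at an adjusted p under 0.05), with DESeq2 1.42.0 as an alternative. Genotype fits had no block, and fits between classes had library as a block. Levels are TMM-scaled CPM from the fit in question, shares are unscaled, and log2 differences in genotype fits are Hivep3-/- over C57BL/6. The sums per library and class held 685348 to 18868622 UMIs. The fits were tested on simulated counts with known changes. Those counts were drawn independently for each gene, with changes larger than the genotype differences of the members. They do not show how the fits treat small shifts that many genes share.

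The members and the lists were chosen with earlier results of these data known. Named members are all called members of a genotype fit, the 3 largest rises and falls of each class, the 5 highest and 5 lowest in level, the 5 farthest above and below the group's median in the genotype fit, paralogue pairs and X-linked members, and other values were added after they were seen. Rpl36al, which that rule also names, does not match the symbol rule and was left out. Some genes that the rule names are not reported here, while the counts include them. In the genotype fits, p-values measure the spread between mice. In the fits between classes and the interaction, with library as a block, they measure how far differences between classes vary across libraries. Alternatives covered scaling, the low-count filter, the clustering, the cell filter, doublets, each library left out and a replicate block, and, added after seeing the data, near-identical copies added to their members.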

Additional observations from a re-analysis of the deposited data

Results flagged for a closer look

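For 3 members the libraries did not overlap with Hivep3-/- lower in a class and with Hivep3-/- higher in another. Within single classes, 17.3 to 24.7% of all genes did not overlap in a given direction. How many of all genes did so both ways was not counted, so these 3 are given as descriptions. Rps21 had a log2 difference of -0.16 in cycling-like cells, at 3670 and 3967 CPM in C57BL/6 and 3386 and 3440 in Hivep3-/-, and of 0.098 in iNKT17-like cells, at 4628 and 4892 against 5128 and 5063 CPM. Rps24 had -0.29 in stage 0-like cells (7095 and 7727 CPM against 5434 and 6657) and -0.13 in iNKT1-like cells (11408 and 11432 against 9810 and 11116), but 0.10 in iNKT2-like cells (9138 and 9787 against 9799 and 10523). Rpl6, named here after its values were seen, had an estimate of 0.025 in iNKT1-like cells, at 3868 and 3842 CPM in C57BL/6 against 3872 and 3973 in Hivep3-/-, while its estimates in the other 4 classes lay between -0.22 (cycling-like) and -0.077 (iNKT2-like). None of these estimates passed the test by edgeR. The interaction of Rpl6 between stage 0-like and iNKT1-like cells was -0.23 (edgeR, adjusted p = 0.294), and the differences between the other pairs of classes named here were not tested. Groups of 2 libraries are too small to test a single library as an outlier.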

How the results depend on the processing

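The counts of called members over all kept cells, in iNKT2-like and in iNKT1-like cells between the genotypes stayed at 0 under every alternative run. In cycling-like cells 1 member was called between the genotypes. No member was called there with no scaling, with the UMIs of the other genes or of the members as library size, with the other cell filter, or with near-identical copies added, while 48 were called without the low-count filter, 3 by DESeq2, 2 without the correction between libraries and 0 to 16 when a library was left out. Rpl41 was not called under 9 of these alternatives, at -0.18 to -0.53. The interaction, with no member called in the main fit, gave 4 with RLE scaling, 1 with no scaling, 1 with the UMIs of other genes as library size, 9 without the low-count filter, 3 by DESeq2, 3 and 1 at resolution 0.4 and 1.2, 5 with the members kept in the clustering, 10 with the other cell filter, 2 with the highest doublet scores removed, and 0 to 1 when a library was left out (1 without C57BL/6 replicate 1). In iNKT17-like cells leaving out a library gave 0 to 1 between the genotypes (1 without Hivep3-/- replicate 2) and 26 to 37 against the other classes. With the members' UMIs as library size, 30 were called in iNKT2-like cells against the other classes. For these alternatives the share of all genes called is not reported here, so the counts do not set the members apart from other genes. The cause of these changes was not tested.

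Same-numbered replicates of the genotypes were not shown to be paired: over 12291 genes their deviations from the group means correlated at r = 0.013, with 2 pairs only. With the replicate number as a block, 7 members were called between the genotypes in stage 0-like cells, 4 in cycling-like and 2 in iNKT17-like cells. The share of all genes called with this block is not reported here.

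The difference of the share in cycling-like cells moved to -2.50 points at resolution 1.2, -3.63 without the correction between libraries, -2.89 with the members kept in the clustering and -4.10 with the other cell filter, against -2.72. When a library was left out it ranged from -1.62 to 0.409 in iNKT2-like and from -1.64 to 0.365 in iNKT1-like cells, above 0 without Hivep3-/- replicate 1. Over all kept cells the genotype estimates then ranged from -0.046 to 0.15 for Rps21, -0.13 to 0.38 for Rpl21, -0.031 to 0.26 for Rps28 and -0.00067 to 0.35 for Rps29, lowest without C57BL/6 replicate 1. Rpl21 was also below 0, at -0.040, without Hivep3-/- replicate 2. With no scaling the median of all genes moved from -0.03 to 0.28 in stage 0-like, from 0.02 to -0.14 in iNKT2-like and from 0.02 to -0.13 in iNKT1-like cells, and 2 members rose and 72 fell in stage 0-like cells. In the C57BL/6 libraries alone, 76 fell in stage 0-like cells and 78 rose in iNKT2-like cells. Of the values of single genes, 575 kept their direction and call, 10 lost the call (9 for Rpl41 and 1 for Rps25) and 5 changed sign, as given above.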
